A study of Coccomyxa subellipsoidea C-169 with 6 samples.

Results

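Among the genes of the unicellular green alga Coccomyxa subellipsoidea C-169, 60 were raised at 2% CO2 in cultures CG 2 and CG 3 while the third culture, CG 1, stayed near the level of cells grown at 0.04% CO2. They are 60 of the 9409 genes measured, and 0.801% of the 7493 genes whose mean level at 0.04% CO2 was at least 10 CPM, a count scaled to the size of its library. The tested cultures (CG) received 2% CO2 and those they were set against (AG) received 0.04% CO2. The strain was the same in all 6 cultures, no transgene or drug was used, and the cells were grown in shaken flasks of Bold's Basal Medium under continuous light and harvested on day 4. One poly(A) RNA library was sequenced per culture, 3 per group, by digital gene expression (DGE) sequencing. By the study's methods all cultures were started from cells pre-cultured at 0.04% CO2, and no label sets CG 1 apart from CG 2 or CG 3.

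The genes were chosen from the measured values themselves. CPM is the read count of a gene divided by the total of its library, times 1000000. A gene was taken if its mean AG level was at least 10 CPM, if CG 1 lay between 0.8 and 1.25 times the AG mean, and if CG 2 and CG 3 were each at least 2 times that mean. Before 8 genes of fatty acid synthesis and elongation were left out by identifier, 63 genes met these conditions. Since the conditions use every CG and AG library, every level, fold and count of calls in CG and AG is given here as a description of the chosen genes and supports nothing. Transcript length, fractional counts and place on the scaffolds were not set by the conditions, and the order of CG 2 and CG 3 was not set directly.

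Elevated CO2 reaches an alga both as a substrate and as a signal. Green algae kept in air induce a carbon-concentrating mechanism, in which bicarbonate transporters and carbonic anhydrases raise the CO2 around RuBisCO, and this machinery is turned down when CO2 is plentiful. With carbon in excess, many algae direct part of it into starch and fatty acids. For the 60 genes described here no role can be given. All 60 identifiers were matched to locus tags of the RefSeq annotation of the C-169 assembly (Coccomyxa subellipsoidae v2.0), as were 9372 of the 9409 genes, but that table carries no product names, 0 of the 60 are among the 54 genes that the paper's text and primer list name, and 0 are among the 219 genes described in the part of the supplementary sheet at hand. The genes are therefore called by the numbers of the deposited table, each of which follows the prefix COCSUDRAFT in the annotation. No nucleotide or protein sequence of C-169 was at hand, so none is shown.

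The CG 1 library stood apart from the other CG libraries over the whole transcriptome. Across the 7493 genes, log2 CPM of CG 2 and CG 3 correlated at 0.989, while CG 1 correlated with them at 0.93 and 0.915, and the AG libraries with each other at 0.986 to 0.99. With the AG libraries, CG 1 correlated at 0.8 to 0.809, CG 2 at 0.724 to 0.736 and CG 3 at 0.711 to 0.723. By this measure CG 1 was nearer to AG than CG 2 and CG 3 were. Genes are not independent replicates, so these coefficients carry no p-value. Library totals were 2674507 counts in CG 1, 2724210 in CG 2 and 3740989 in CG 3, against 3825993 to 4969639 in the AG libraries, so that CG 1 and CG 2 were of nearly the same depth. RuBisCO, the carboxylase of the Calvin cycle and a mark of a photosynthetic cell, was at 7287, 13710 and 13090 RPKM (read counts scaled by transcript length and library size) in CG 1, CG 2 and CG 3, against 8651 to 9167 RPKM in AG. For this gene CG 1 was thus below every AG library, and CG 2 and CG 3 were above all of them.

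Most genes that were raised in CG 2 and CG 3 were raised in CG 1 too, and the 60 genes are part of the minority that was not. Of 983 genes at or above 2 times the AG mean in CG 2 and CG 3, 622 reached that level in CG 1 as well and 275 lay between 1.25 and 2 times. CG 1 was within 0.8 to 1.25 times in 63 genes, which is 6.41% of the 983 and includes 3 of those left out by identifier, and it was lower still in 23. In the opposite direction, 937 genes were at or under 0.5 times the AG mean in CG 2 and CG 3, and CG 1 stood within the same window in 105 of them, or 11.2%. Over all 7493 genes CG 1 was within the window in 36.1%, CG 2 in 31.5% and CG 3 in 31.6%.

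**Figure D1:**
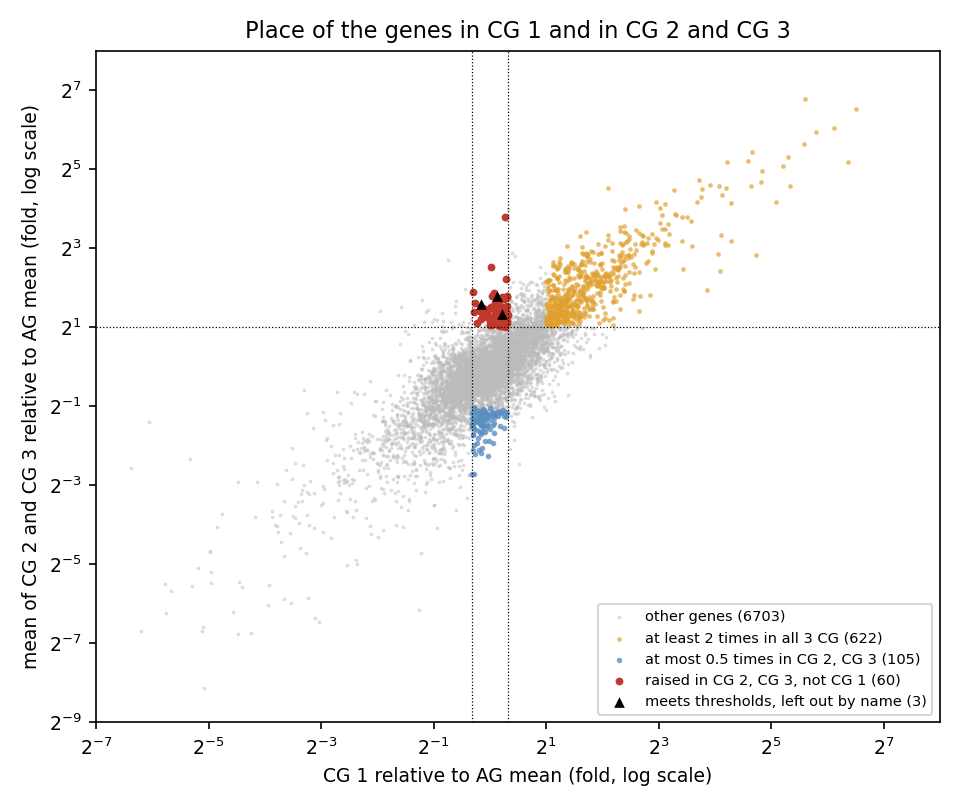
Each point is a gene with a mean AG level of at least 10 CPM. The x axis gives CG 1 and the y axis the mean of CG 2 and CG 3, both as a fold of the AG mean on a log2 scale, and dotted lines mark 0.8, 1.25 and 2. The 60 genes sit above 2 on the y axis between the vertical lines, off the diagonal along which the 622 genes raised in all 3 CG libraries lie. The key also gives the 105 genes lowered in CG 2 and CG 3 alone and the 3 genes left out by identifier.

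The share of such genes did not follow expression level in 1 direction. They made up 5.9% of the genes raised in CG 2 and CG 3 at 10 to 20 AG CPM (16 of 271), 5.46% at 20 to 100 CPM (28 of 513) and 8.04% from 100 CPM upwards (16 of 199). By size of the rise they were 7.57% of the genes with a mean CG 2 and CG 3 fold from 2 to 2.5 (23 of 304), 12.1% from 2.5 to 3 (22 of 182), 4.47% from 3 to 5 (13 of 291) and 0.971% from 5 upwards (2 of 206). Large rises in CG 2 and CG 3 with a flat CG 1 were thus represented by 2 genes.

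The first of these, gene 53798, had the largest rise. Its level was 25.8, 286.3 and 303.7 CPM in CG 1, CG 2 and CG 3, against 18.7, 23.5 and 21.7 CPM in AG 1, AG 2 and AG 3. CG 2 and CG 3 averaged 13.8 times the AG mean, while CG 1 was above every AG library by a margin that its counting interval covers (fold 1.21, 95% interval 0.916 to 1.58). Gene 35925 came next, at 19.1, 106.1 and 110.1 CPM in CG 1, CG 2 and CG 3, against 18.2, 16.7 and 21.1 CPM in AG 1, AG 2 and AG 3. Here CG 1 lay inside the AG range, and CG 2 and CG 3 averaged 5.79 times the AG mean. The intervals are exact binomial ones for the ratio of the CG 1 count to the summed AG counts, scaled by the library totals. Reads had no molecular identifiers, so the intervals describe counting error and nothing else.

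Between 3 and 5 times the AG mean there were 13 genes, of low and of high abundance. Gene 52356 was at 19.8, 72.3 and 80.5 CPM in CG 1, CG 2 and CG 3, against 14.4, 19.9 and 14.7 CPM in AG 1, AG 2 and AG 3, so that CG 1 was just below the highest AG library. Gene 65192 had 17.2, 55.1 and 64.2 CPM in the CG libraries in the same order, against 18.9, 15.2 and 14.9 CPM in the AG libraries. Gene 52156 had 19.4, 66.4 and 65.2 CPM in CG, against 22.9, 18.3 and 15.7 CPM in AG. In both of the last 2, CG 1 was within the AG range.

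Gene 67496 was at 20.9, 50.7 and 65.8 CPM in CG 1, CG 2 and CG 3, against 21.7, 15.4 and 13.5 CPM in AG 1, AG 2 and AG 3. AG 1 was the highest of the AG libraries for this gene, and CG 1 lay just below it. Gene 31548 was at 22.8, 62.0 and 66.4 CPM in CG, against 19.2, 22.6 and 16.2 CPM in AG, and is among the 11 genes with fractional counts, for which how the authors divided reads is not given in the sources used here.

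Among the more abundant genes, CG 1 stood on either side of AG. Gene 14906 was at 100.6, 435.7 and 474.2 CPM in CG 1, CG 2 and CG 3, against 113.5, 110.0 and 146.1 CPM in AG 1, AG 2 and AG 3. CG 1 was thus below every AG library, at 0.816 times the AG mean (95% counting interval 0.704 to 0.915). Gene 38482 was at 252.8, 654.5 and 736.2 CPM in CG, against 189.6, 219.0 and 207.9 CPM in AG, and here CG 1 was above every AG library, at 1.23 times their mean (1.13 to 1.34). Gene 48572 was at 341.0, 895.7 and 1087 CPM in CG, against 370.7, 263.7 and 244.7 CPM in AG, with CG 1 inside the AG range.

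**Figure D2:**
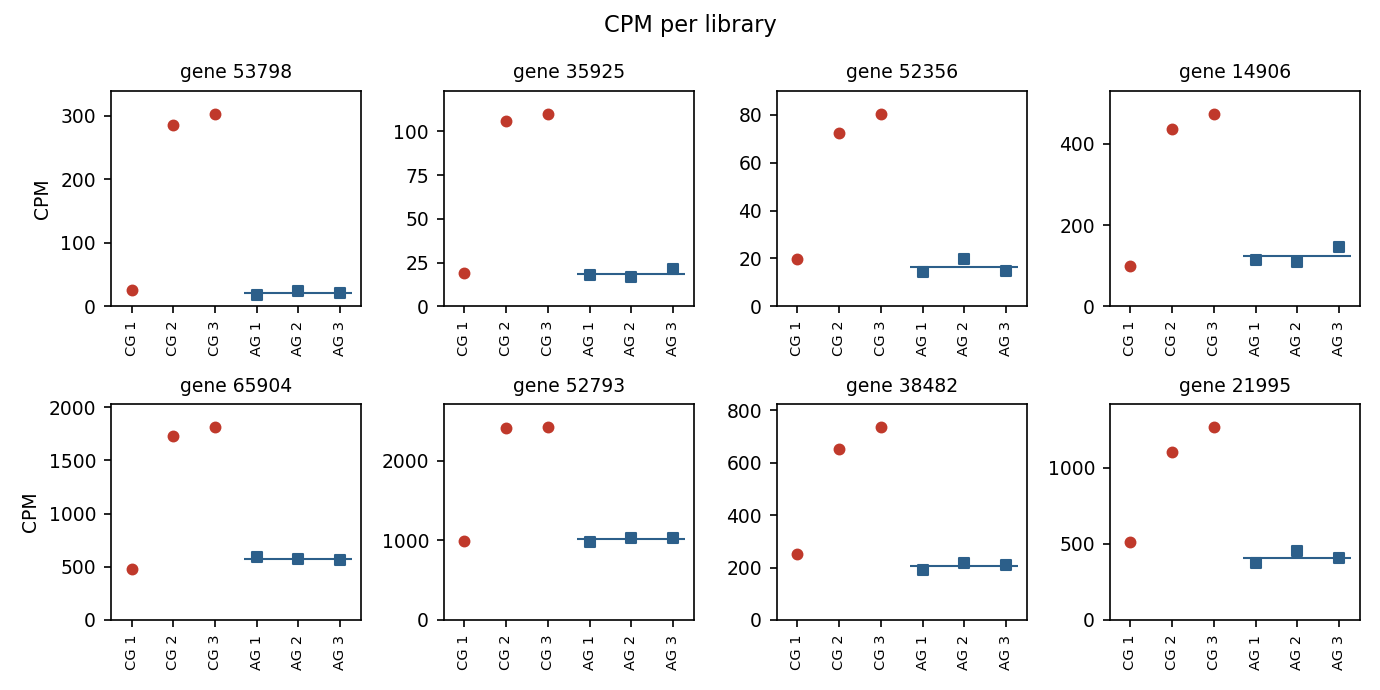
CPM on the y axis, from 0, in each library for 4 of the genes with the largest rises (top row: 53798, 35925, 52356 and 14906) and 4 of those with the highest level at 0.04% CO2 (bottom row: 65904, 52793, 38482 and 21995). Circles are CG libraries, squares are AG libraries and the line is the AG mean; in each panel CG 2 and CG 3 are at the top and CG 1 is beside the AG libraries.

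Per unit of length, gene 65904 was the most abundant of the 60 at 0.04% CO2. Its level was 414, 1490 and 1560 RPKM in CG 1, CG 2 and CG 3, against 511, 490 and 487 RPKM in AG 1, AG 2 and AG 3. Over the AG libraries the coefficient of variation (CV, the SD as a percent of the mean) was only 2.62%. CG 1 was below all 3 AG libraries. Gene 52793 followed, at 261, 638 and 640 RPKM in CG and 260, 273 and 273 RPKM in AG. With 2636 counts in CG 1 it is the most deeply counted of the 60, and its CG 1 level was 0.97 times the AG mean (95% counting interval 0.929 to 1.01). It held 16.9% of the CPM of all 60 genes in AG.

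The next in order at 0.04% CO2 were close to each other. Gene 21995 was at 167, 360 and 415 RPKM in CG 1, CG 2 and CG 3, against 122, 149 and 132 RPKM in AG 1, AG 2 and AG 3. Gene 61099 was at 154, 338 and 359 RPKM in CG, against 132, 131 and 127 RPKM in AG. Both had CG 1 above every AG library. Gene 25768 was at 118, 285 and 288 RPKM in CG, against 106, 118 and 106 RPKM in AG. Gene 23324 was at 108, 233 and 252 RPKM in CG, against 96.8 to 109 RPKM in AG. In both of these genes CG 1 lay inside the AG range. Together with gene 38482, whose AG libraries were at 129 to 149 RPKM, the AG values of genes 21995 and 61099 overlap, so the order among these 3 is within their spread.

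Over all 60 genes the mean of CG 2 and CG 3 was 2.02 to 13.8 times the AG mean, with a median of 2.6. Below 3 times there were 45 genes, 22 of them from 2.5 to 3 and 23 from 2 to 2.5. CG 2 and CG 3 were above CG 1 and above every AG library in 60 of 60, which the conditions nearly fix. The median fold was 1.1 in CG 1, 2.48 in CG 2 and 2.78 in CG 3. The 60 genes together held 0.625%, 1.6% and 1.71% of the counts of CG 1, CG 2 and CG 3, against 0.609%, 0.61% and 0.582% of those of AG 1, AG 2 and AG 3. In bulk RNA a change in every cell and a change in the share of cells that express a gene cannot be told apart.

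**Figure D3:**
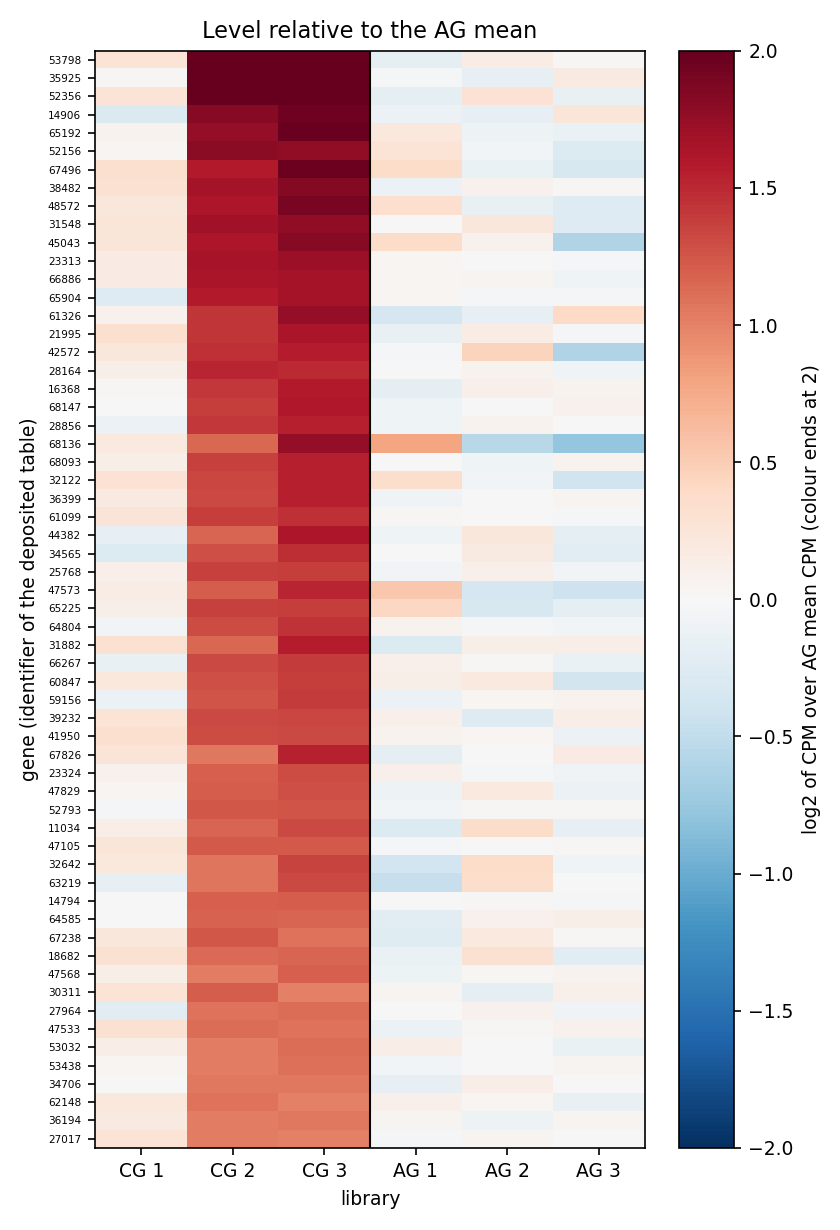
Each row is 1 of the 60 genes, ordered from the largest rise at the top, and each column a library, CG 1 to CG 3 and then AG 1 to AG 3. Colour is log2 of the CPM over the AG mean, from blue for lower to red for higher, and ends at 2. CG 2 and CG 3 are red throughout, CG 1 is pale, and the strongest colour within AG is that of gene 68136, which is high in AG 1.

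Within the window that the conditions allow, CG 1 was above the AG mean in 47 genes and below it in 13. Over all 7493 genes, the median level in CG 1 was 1.01 times the AG mean. CG 1 lay within the range of the AG libraries in 29 genes, above all of them in 24 and below all of them in 7. No such counts are given here for other genes, so neither these nor the 47 and 13 are read as a trait of the 60. Between CG 2 and CG 3, a relation the conditions did not set directly, CG 3 was the higher in 52 of 60 genes (86.7%), by a median of 1.07 times. Among the 622 genes raised in all 3 CG libraries CG 3 was the higher in 58.5%, by a median of 1.02 times, and among all 7493 genes in 47.2%. Genes are not replicates and these shares rest on 1 pair of libraries, so no test is attached. The comparison genes were not chosen for a flat CG 1, and CG 1 correlated more closely with CG 2 (0.93) than with CG 3 (0.915). Whether the choice of genes favours this order was not tested, so the order is not read as a trait of the 60.

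The depth limits how closely CG 1 can be placed for single genes. CG 1 held 31.5 to 2636 counts of each of the 60 genes, with a median of 104. The 95% counting interval of CG 1 relative to AG included 1 in 45 of the 60 genes, lay wholly within 0.8 to 1.25 in 13 and reached past that window in 47. The highest upper bound was 1.83, for gene 42572, which had the fewest counts in CG 1. The conditions cap CG 1 and set a floor for CG 2 and CG 3, so where these intervals lie is largely fixed by the choice of genes, and only their width is informative. The smallest lower bounds were 1.24 for CG 2 over CG 1 and 1.29 for CG 3 over CG 1.

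**Figure D4:**
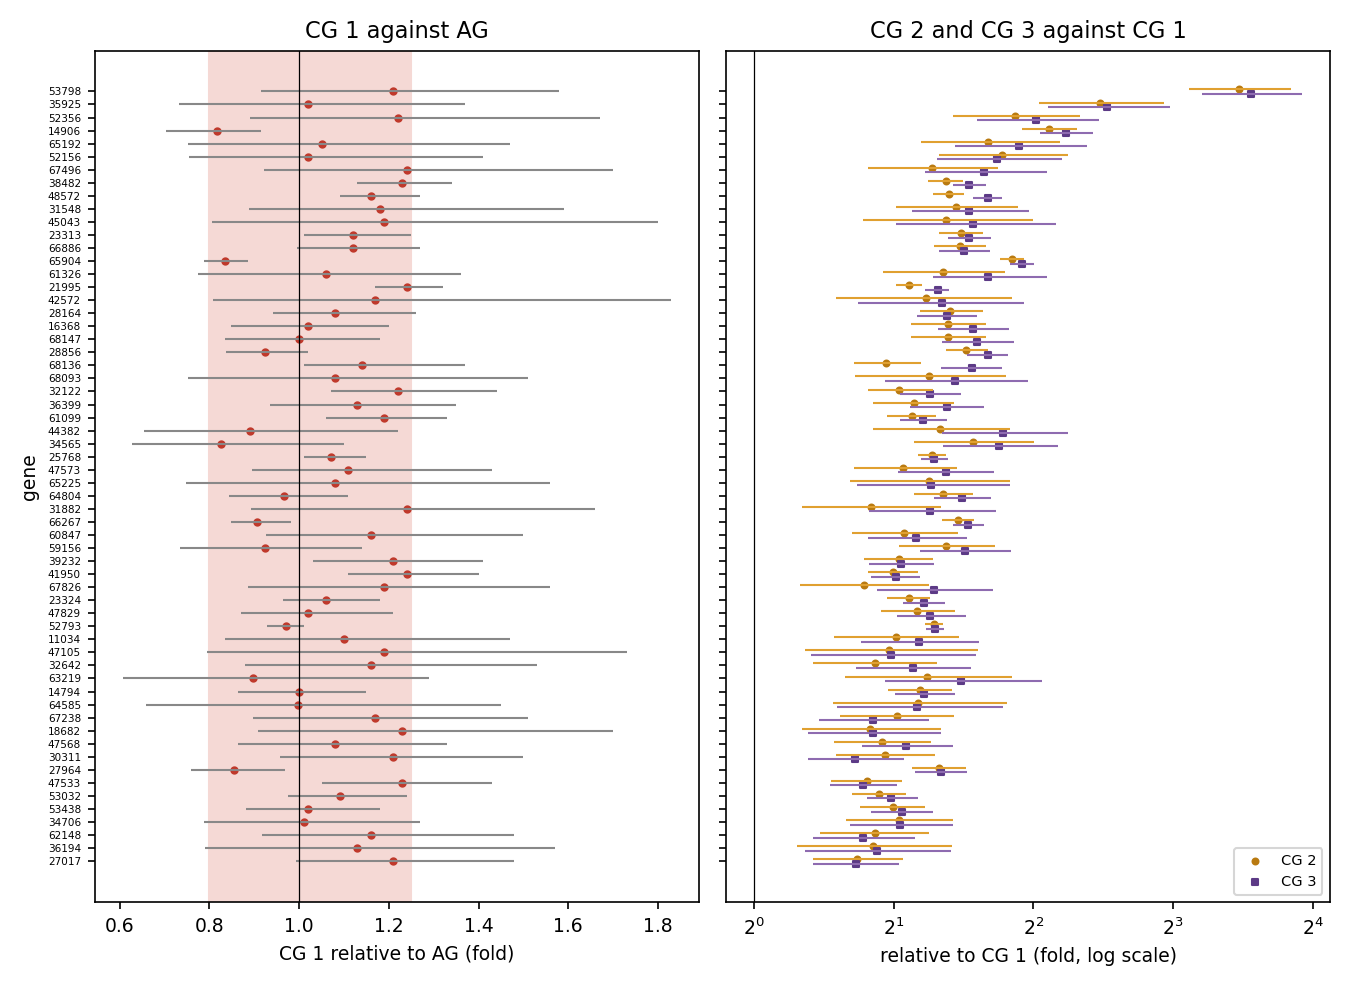
Left, the level in CG 1 as a fold of AG for each of the 60 genes with its 95% counting interval, and the window of 0.8 to 1.25 shaded. Right, CG 2 (circles) and CG 3 (squares) as a fold of CG 1 on a log2 scale with their intervals, which the choice of genes places above 1; the genes are in the same order in both panels, from the largest rise at the top.

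The spread between AG libraries was small for most of the 60 genes and large for a few. The CV over AG was 1.38 to 63.4% with a median of 10.3%, and it was 17.7% in the median of the 16 genes under 20 CPM and 6.31% in that of the 16 genes from 100 CPM. It passed 25% in 11 genes. Gene 68136 was the extreme, at 82.1, 158.4 and 241.8 CPM in CG 1, CG 2 and CG 3, against 124.2, 49.0 and 42.2 CPM in AG 1, AG 2 and AG 3. CG 1 lay between AG 1 and the other AG libraries there, so the AG mean on which its choice rests depends on AG 1, and its counts were partly fractional. Gene 47573 had a similar order, with 34.2, 71.8 and 88.9 CPM in CG and 44.9, 24.6 and 23.2 CPM in AG, and fractional counts too.

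Genes close to a limit show how finely the set is cut. At the minimum of 10 CPM, genes 42572 and 45043 were inside, at mean AG levels of 10.05 and 10.39 CPM, and genes 67729 and 48615 outside, at 9.783 and 8.689 CPM. At the lower limit for CG 1, genes 14906 and 34565 were inside, at 0.816 and 0.826 times the AG mean, and genes 53327 and 61854 outside, at 0.793 and 0.77 times. At the upper limit, genes 41950 and 21995 were inside, at 1.245 and 1.243 times, and genes 21687 and 67658 outside, at 1.253 and 1.271 times. Gene 21687 would have been the first by size, since CG 2 and CG 3 were at 15.7 and 16.4 times its AG mean of 14.3 CPM. At the minimum rise, genes 30311 and 62148 were inside, with CG 3 at 2.002 and 2.004 times, and genes 66712 and 65127 outside, with CG 2 at 1.984 and 1.976 times.

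In a fit across all genes, CG 1 enters as 1 of the 3 CG libraries. With edgeR's quasi-likelihood test on all 6 libraries, 42 of the 60 genes passed as higher in CG at an adjusted p under 0.05, beside 27.3% of the 8637 genes tested. The conditions used this same contrast, so nothing is read from that count. Fitted log2 fold changes of CG over AG were 0.69 to 3.18 with a median of 0.98. Their standard errors, worked back from each fold change and its quasi-likelihood test statistic, were 0.2 to 0.8 with a median of 0.34. The 18 genes that did not pass include the 2 most abundant in RPKM, 65904 at 1.13 (standard error 0.45) and 52793 at 0.84 (standard error 0.34). With column sums as the only scaling, as in the choice of genes, 51 passed, beside 30.6%. Without CG 1 the median was 1.28 and 59 of 60 passed, beside 34% of 8720 genes. Without AG 1, AG 2 or AG 3, 4, 2 and 0 of the 60 passed in edgeR, beside 21.6%, 23.1% and 21% of all genes tested as higher in CG, and 32, 27 and 24 of the 60 had an unadjusted p under 0.05. Without CG 2 or CG 3, 1 each passed, beside 22.4% and 23.1% of all genes tested, and 28 and 26 of the 60 had an unadjusted p under 0.05.

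Length was not used by the conditions. The transcripts of the 60 genes, by the lengths behind the authors' RPKM values, had a median of 1705 bases (quartiles 1369 and 2452), against 1599 bases for the 622 genes raised in all 3 CG libraries, 1148 bases for the 105 genes lowered in CG 2 and CG 3 alone, and 1329 bases for all 7493 genes. Lengths of at least 3000 bases were found for 12 of the 60 (20%), 13.0% of the 622, 1.9% of the 105 and 8.83% of the 7493. The longest was gene 42572, at 6951 bases, and the shortest gene 36194, at 375 bases. The same minimum in CPM was set for all 4 sets, whose median AG levels were 38.2, 34.2, 105.0 and 52.8 CPM in the order given. A minimum in CPM admits long transcripts at a lower level per unit of length, and its part in these lengths was not tested.

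The conditions set a minimum for the level at 0.04% CO2, and the level per unit of length is given as a description. The median mean AG level was 21.7 RPKM for the 60 genes, 23.9 RPKM for the 622 genes, 100.2 RPKM for the 105 genes and 40.2 RPKM for the 7493 genes. Fractional counts occurred in 11 of the 60 genes (18.3%), in 20.3% of the 622, in 4.76% of the 105 and in 11.4% of all. These are descriptions over genes, which are not replicates, and no difference between the sets was tested.

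**Figure D5:**
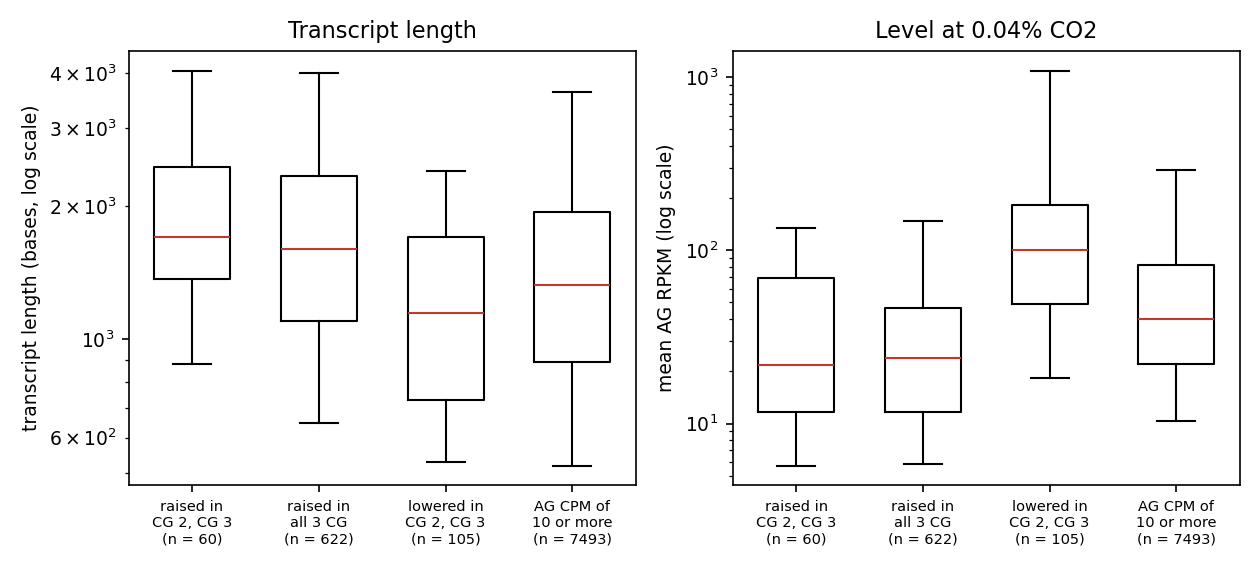
Transcript length in bases (left) and mean AG level in RPKM (right), both on log scales, for the 60 genes raised in CG 2 and CG 3 but not CG 1, the 622 raised in all 3 CG libraries, the 105 lowered in CG 2 and CG 3 alone, and all 7493 genes. Boxes span the quartiles with the median as a line and whiskers reach the 5th and 95th percentiles; the medians are 1705, 1599, 1148 and 1329 bases and 21.7, 23.9, 100.2 and 40.2 RPKM.

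In no case were 2 of the 60 genes next to each other on the scaffolds of the assembly. No such count is given here for other genes, so this is not read as a trait of the 60. The closest pairs were genes 59156 and 64585, with 2 genes between them, and genes 23313 and 23324, with 3 between them. Of the genes that adjoin one of the 60 on either side, 85 reached 10 CPM in AG. Their median level was 0.933, 1.06 and 1.03 times the AG mean in CG 1, CG 2 and CG 3, against 1.01, 1.01 and 0.999 times for all 7493 genes. At least 2 times the AG mean in CG 2 and CG 3 was reached by 15 of the 85 (17.6%), against 13.1% of the 7493. For 5 of the 60 genes the annotated span overlaps that of an adjoining gene. Reads of both strands were counted, and whether reads of such genes were mixed where the spans overlap was not tested.

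Among the 54 genes that the paper's text and primer list name, 3 met the same conditions, all of them among the 8 left out by identifier. The animal-type fatty acid synthase 47508, a multidomain enzyme that builds fatty acids, was at 568.1, 1734 and 1901 CPM in CG 1, CG 2 and CG 3, against 488.8, 648.5 and 428.9 CPM in the AG libraries. The acyl-ACP thioesterase 4465, which releases finished fatty acids from their carrier protein in the plastid, was at 46.0, 148.7 and 159.6 CPM in CG, against 52.5, 56.2 and 45.5 CPM in AG. The 3-ketoacyl-CoA synthase 12119, the condensing enzyme of fatty acid elongation, was at 134.8, 285.6 and 298.3 CPM in CG, against 121.9, 118.1 and 107.4 CPM in AG. In all 3 genes CG 2 and CG 3 were above every AG library, and CG 1 was inside the AG range for 47508 and 4465 and above it for 12119.

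Of the 11 genes of fatty acid synthesis and elongation that the paper's text and primer list name, 8 passed as higher in CG in edgeR, 0 as lower, and 3 did not pass, beside 27.3% of all genes tested as higher and 25% as lower. The paper chose these genes with these samples in view, so the count is not independent evidence of a direction. The other 5 left out by identifier missed the conditions. In gene 65159 of acetyl-CoA carboxylase, which makes the malonyl-CoA used in chain building, and in the 3-ketoacyl-CoA synthases 18441 and 64433, CG 1 was at 1.34, 1.42 and 1.63 times the AG mean. CG 2 and CG 3 were at 4.42 and 4.52 times in 65159, 2.58 and 2.68 times in 18441, and 3.72 and 3.96 times in 64433. In the 3-oxoacyl-ACP synthase 54810 CG 1 was at 0.435 times, with CG 2 and CG 3 at 3.12 and 3.33 times. In the acetyl-CoA carboxylase gene 27575 CG 1 was at 0.49 times, with CG 2 and CG 3 at 1.61 and 1.73 times.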

How the data were processed

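RNA of 6 cultures was sequenced as 36 nt single-end reads. The authors mapped clean reads with Bowtie (version not given in the sources used here), with 1 mismatch allowed, to the Phytozome transcripts of C-169 and counted both strands. The deposited counts per gene are partly fractional, although the study describes reads matched to a single gene, and were treated as estimated counts. The authors also deposited RPKM values, which were used as they stand, and transcript lengths were recovered from both. The table's remaining columns hold the authors' own comparison (means, fold changes and FDR) and were not used.

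Counts were rounded and fitted in R 4.3.3 with edgeR 4.0.16 (TMM scaling, filterByExpr, robust quasi-likelihood test, Benjamini-Hochberg adjustment over all genes tested). The fit was tested on simulated data. Alternatives were limma 3.58.1 (log2 of RPKM plus 1 or plus 0.1), DESeq2 1.42.0, other scalings and filters, unrounded counts, a replicate block, each library left out, and other limits in the choice of genes. p-values weigh the difference between the groups against the spread among these 6 libraries only, which also holds library and counting noise. Replicate libraries differed by more than sampling noise. Tables were made in Python 3.11.15 (scipy 1.17.1, pandas 2.3.3, numpy 2.4.6) and plots in matplotlib 3.10.9.

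The genes, comparison sets and alternatives were chosen with earlier results of these data known. Genes named are the 10 with the largest rise, the 8 with the highest mean AG RPKM, the 2 on each side of every limit, and left-out genes that meet the conditions; genes 68136, 47573, 42572 and 36194, the closest pairs and the other left-out genes were also singled out after their values were seen. Planned lists by product name, protein similarity, exon number, GC content and promoter motifs were not analysed here, as no product names or sequences were at hand.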

Additional observations from a re-analysis of the deposited data

How the results depend on the processing

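The number of genes that met the conditions was 60. With a CG 1 window from 0.9 times the AG mean to its inverse it was 25, and with a window from 0.67 to 1.5 times it was 135. With 1 library left out it was 50 to 976, the highest value being that without CG 1, where its condition falls away. Without AG 1, AG 2 or AG 3 it was 50, 55 and 59, of which 42, 44 and 50 were among the 60. Under TMM scaling 56 genes met the conditions, 43 of them among the 60, and under DESeq2 size factors 59, with 44 shared. With RPKM in place of CPM 60 of 60 were shared.

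The number of the 60 genes that passed in CG against AG was 42 in edgeR. It was 21 and 24 in limma on log2 RPKM with a pseudocount of 1 and 0.1 (beside 27.4% of all genes as higher in CG in both), 53 in DESeq2 (24.7%), 51 with column sums as the only scaling (30.6%), and 0 to 59 with 1 library left out, the lowest without AG 3 and the highest without CG 1. Over all genes, in both directions, 4512 passed in edgeR, 4465 in DESeq2, and 3471 to 5946 with 1 library left out. With the replicate number as a block, 25 of the 60 and 4071 of all genes passed, beside 24.3% of the 8637 genes as higher in CG. Nothing in the labels says that the numbers pair the cultures. Across genes the departures from the group means correlated at -0.052, 0.039 and -0.065 between same-numbered libraries. Between libraries of other numbers they correlated at -0.078 to 0.081. Of the 22 named genes, 18 passed in the main edgeR fit. Of 330 log2 fold changes of the 22 under these alternatives, 112 no longer passed and 8 newly passed. Only values of the 18 could cease to pass, and only values of the others could newly pass. The sign of all these values is nearly fixed by the choice of genes. Fits with 1 library left out rest on fewer samples, and the cause of these differences was not tested.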
